A study of Mus musculus with 20 samples.

Results

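The Cyp3a family was measured in mouse liver by RNA sequencing. Its members were the 8 genes Cyp3a11, Cyp3a13, Cyp3a16, Cyp3a25, Cyp3a41a, Cyp3a41b, Cyp3a44 and Cyp3a59, matched by symbol among 55487 genes in the table of unnormalised counts, and all 8 were found. All mice were female C57BL/6J, entered the study at 8 weeks of age and were 28 weeks old when the liver was taken. Chow-fed mice (5 libraries) stayed on chow. The other mice received a high-fat diet (HFD) for 10 weeks and then, for 10 more weeks, an HFD in which 50% of the protein came from fishmeal of salmon by-products (5 libraries), salmon filet (6 libraries) or beef (4 libraries). The chow and HFD arms therefore differed in the whole diet, and no group on the first HFD alone was among the libraries. Each library came from 1 mouse.

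Cyp3a enzymes are cytochrome P450 monooxygenases of the endoplasmic reticulum. They take electrons from cytochrome P450 reductase (Por) and oxidise drugs, steroid hormones and bile acids, and in the liver they are found mainly in hepatocytes around the central vein. The nuclear receptors PXR (Nr1i2) and CAR (Nr1i3) switch on Cyp3a11 and other genes of drug metabolism when they sense foreign compounds or bile acids, and the growth hormone pattern of female mice keeps several members, such as Cyp3a41a and Cyp3a44, high in adult females.

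The members lay on chromosome 5 of the mouse genome (GRCm38). Cyp3a13 stood alone on the minus strand at chr5:137892932-137921619. The other 7 formed a cluster from Cyp3a16 (chr5:145436309-145469723, minus strand) over Cyp3a41b (chr5:145558664-145584730), Cyp3a41a (chr5:145694049-145720136), Cyp3a44 (chr5:145773983-145805874), Cyp3a11 (chr5:145854426-145879964) and Cyp3a25 (chr5:145977194-146009618), all on the minus strand, to Cyp3a59 (chr5:146079257-146113287, plus strand). Each member has 13 exons.

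The bases before the RefSeq start of 5 members are shown because these members follow different courses in the results. Cyp3a11 alone passed the edgeR test against chow. Cyp3a16, Cyp3a41a and Cyp3a44 were low in the same 2 chow-fed mice, and Cyp3a25 varied least of the members among HFD-fed mice. The windows are chr5:145879965-145880104 (Cyp3a11), chr5:145469724-145469973 (Cyp3a16), chr5:145720137-145720386 (Cyp3a41a), chr5:145805875-145806124 (Cyp3a44) and chr5:146009619-146009868 (Cyp3a25), all minus strand, from RefSeq on GRCm38.p6 and written 5′ to 3′. Capitals mark matches, on either strand, to the nuclear receptor half-sites AGGTCA and AGTTCA, the HNF4 motif CAAAGTCCA and the Onecut core ATTGAT. For Cyp3a11 the last 110 bases of the window lie inside the gene's GENCODE record and are not printed.
Cyp3a11: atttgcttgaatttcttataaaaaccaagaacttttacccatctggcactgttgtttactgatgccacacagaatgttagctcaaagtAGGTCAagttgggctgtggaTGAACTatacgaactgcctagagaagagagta
Cyp3a16: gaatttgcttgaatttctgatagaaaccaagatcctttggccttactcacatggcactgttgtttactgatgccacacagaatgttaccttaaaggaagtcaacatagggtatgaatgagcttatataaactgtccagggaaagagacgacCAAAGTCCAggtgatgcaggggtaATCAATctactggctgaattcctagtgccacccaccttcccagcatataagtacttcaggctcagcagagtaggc
Cyp3a41a: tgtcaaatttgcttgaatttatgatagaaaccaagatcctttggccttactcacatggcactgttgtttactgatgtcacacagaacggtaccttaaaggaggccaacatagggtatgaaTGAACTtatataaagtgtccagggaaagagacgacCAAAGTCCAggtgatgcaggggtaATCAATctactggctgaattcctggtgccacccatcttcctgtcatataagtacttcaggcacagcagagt
Cyp3a44: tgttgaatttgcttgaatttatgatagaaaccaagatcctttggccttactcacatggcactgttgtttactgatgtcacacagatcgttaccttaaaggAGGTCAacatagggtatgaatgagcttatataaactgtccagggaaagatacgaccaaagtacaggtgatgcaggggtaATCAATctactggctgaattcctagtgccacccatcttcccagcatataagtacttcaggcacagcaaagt
Cyp3a25: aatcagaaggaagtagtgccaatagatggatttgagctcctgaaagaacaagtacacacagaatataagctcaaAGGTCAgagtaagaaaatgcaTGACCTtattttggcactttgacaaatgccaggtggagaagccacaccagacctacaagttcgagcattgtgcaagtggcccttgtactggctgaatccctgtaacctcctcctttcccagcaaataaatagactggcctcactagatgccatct

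The 250 bases before the start held CAAAGTCCA in 4 of 8 members (Cyp3a11, Cyp3a16, Cyp3a41a and Cyp3a41b), compared to 0.38% of 27025 mouse promoters of the same length. In Cyp3a11 this match lay 109 to 101 bases before the start. ATTGAT was present in Cyp3a16, Cyp3a41a, Cyp3a41b and Cyp3a44, compared to 6.97% of all promoters. AGGTCA was present in Cyp3a11, Cyp3a25, Cyp3a44 and Cyp3a59 (13.8% of all promoters), and AGTTCA in Cyp3a11, Cyp3a41a and Cyp3a41b (11.9%). No member had the STAT5 motif TTCNNNGAA (7.18% of all promoters) or the D-box TTANGTAA (2.11%) in this window. The members of the cluster are copies of one another, so these matches are not independent, and a match is a description of letters only.

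Sequence similarity sets how well reads of 50 bases can be assigned to one member. The reads were sequenced in pairs, and the windows of 50 bases below describe a single read without its mate. The coding sequences of Cyp3a41a and Cyp3a41b differed at 2 of 1515 bases (99.9% identity), and their windows of 250 bases before the start at 1. Cyp3a25 and Cyp3a59 were 97.5% identical in the coding sequence, and Cyp3a41a and Cyp3a44 95.8%. Over all 28 pairs the identity ranged from 74.7% to 99.9% with a median of 76.4%. Of all 50-base windows along the transcript, the share found in no other gene was 100% for Cyp3a13, 89.3% for Cyp3a16, 85.2% for Cyp3a11, 73.6% for Cyp3a44, 73.2% for Cyp3a25 and 72.0% for Cyp3a59. It was 6.5% for Cyp3a41b and 1.4% for Cyp3a41a. Taken as a pair, 84.5% and 79.5% of the windows of Cyp3a41b and Cyp3a41a lay in no gene outside the pair. How reads that fit several genes were counted is not given in the sources used here. The split of counts between Cyp3a41a and Cyp3a41b is therefore uncertain, and their sum is given where it matters.

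**Figure D1:**
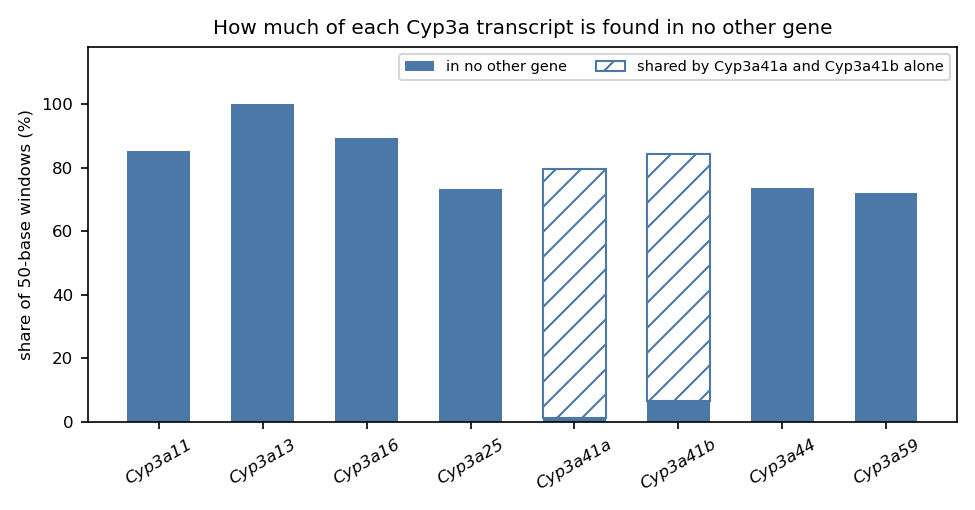
Share of 50-base windows of each Cyp3a transcript (in percent, vertical axis) found in no other gene; the hatched part is found in Cyp3a41a and Cyp3a41b and in no gene outside this pair. Cyp3a13 reaches 100%, whereas Cyp3a41a and Cyp3a41b have 1.4% and 6.5% of their own.

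The libraries held 42526234 to 70266136 counts, and the 8 members took 0.215% to 0.562% of them. The lowest count of any member was 84, for Cyp3a16 in chow mouse 1, so sampling of reads was not the main limit for any member. Libraries of the same group differed by more than counting noise in all 41 pairs. Every library had Xist (693 to 1473 CPM, counts scaled to library size) and at most 1 count on the Y-linked genes examined, which matches the label female. Protein coding genes took 84.3% of the counts in mouse 35 (beef) and 93.2% to 95.6% in the other libraries. Mouse 31 is labelled as salmon filet, but its column in the count table is named beef; it was kept in the salmon filet group. Counted as beef, it gives 5 libraries in every diet group, the even group size that the study describes. Each comparison of the salmon filet or beef group is therefore also given with mouse 31 as beef. A score of the circadian clock (the mean standardised level of daytime clock genes minus that of night-time clock genes) ranged from -2.59 to -0.98 in chow-fed and from -1.97 to 3.24 in HFD-fed mice, and the hour of sampling is not given in the sources used here.

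Levels of the members were compared in TPM, which correct each count for the length of its gene and for the size of its library. Cyp3a11, the main drug-oxidising member in mouse liver, was the highest on average with 1002 ± 420 TPM (SD, n = 20), at rank 94 of 21936 protein coding genes. It was followed by Cyp3a41a, a female-predominant member, with 695 ± 281 TPM and Cyp3a25, a member of liver and intestine, with 562 ± 114 TPM. Lower were Cyp3a16, known from the livers of young mice and of females, with 201 ± 153 TPM, Cyp3a13 with 158 ± 40.3 TPM, Cyp3a41b with 155 ± 94.9 TPM, Cyp3a44, another female-predominant member, with 97.4 ± 51.6 TPM and Cyp3a59, the near copy of Cyp3a25, with 52.4 ± 16.4 TPM. All 8 members were thus among the 1478 most abundant protein coding transcripts.

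The order of the mean levels in TPM was not the same in each diet. In chow-fed mice Cyp3a11 led in 5 of 5 mice, and its range did not overlap that of the next member, Cyp3a25. In HFD-fed mice Cyp3a11 averaged 826 ± 209 TPM and Cyp3a41a 754 ± 207 TPM (n = 15), and Cyp3a11 was the higher of the pair in 9 of 15 mice. In mice fed beef the mean of Cyp3a41a (748 ± 286 TPM, n = 4) lay slightly above that of Cyp3a11 (734 ± 198 TPM), with each leading in 2 of 4 mice. Counting mouse 31 as beef gave means of 769 ± 252 TPM and 740 ± 172 TPM (n = 5). Most neighbours in the order overlapped in range. The exceptions were Cyp3a11 over Cyp3a25 in chow-fed mice and in mice fed beef, and Cyp3a25 over Cyp3a13 in mice fed beef. If mouse 31 is counted as beef, Cyp3a25 reached 695 TPM in that group and overlapped Cyp3a11. Cyp3a25 was above Cyp3a16 in all 15 HFD-fed mice although their ranges overlapped. The assignment of counts within the Cyp3a41 pair does not affect the first rank of Cyp3a11 in chow-fed mice, where the summed pair had 612 ± 488 TPM (n = 5). In HFD-fed mice the pair summed to 930 ± 279 TPM (n = 15), above the mean of Cyp3a11. These orders depend on the gene lengths behind the deposited TPM, which were not examined. In mouse 32 (beef), 107809 counts of Cyp3a11 gave 973 TPM, whereas 51839 counts of Cyp3a41a gave 1157 TPM. Their longest coding transcripts had 2344 and 2060 bases. In CPM, Cyp3a11 averaged 1678 ± 416 in HFD-fed and 1536 ± 326 in beef mice. Cyp3a41a averaged 620 ± 163.5 and 639 ± 229, and the pair 764.5 ± 218.8 and 730 ± 267.

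**Figure D2:**
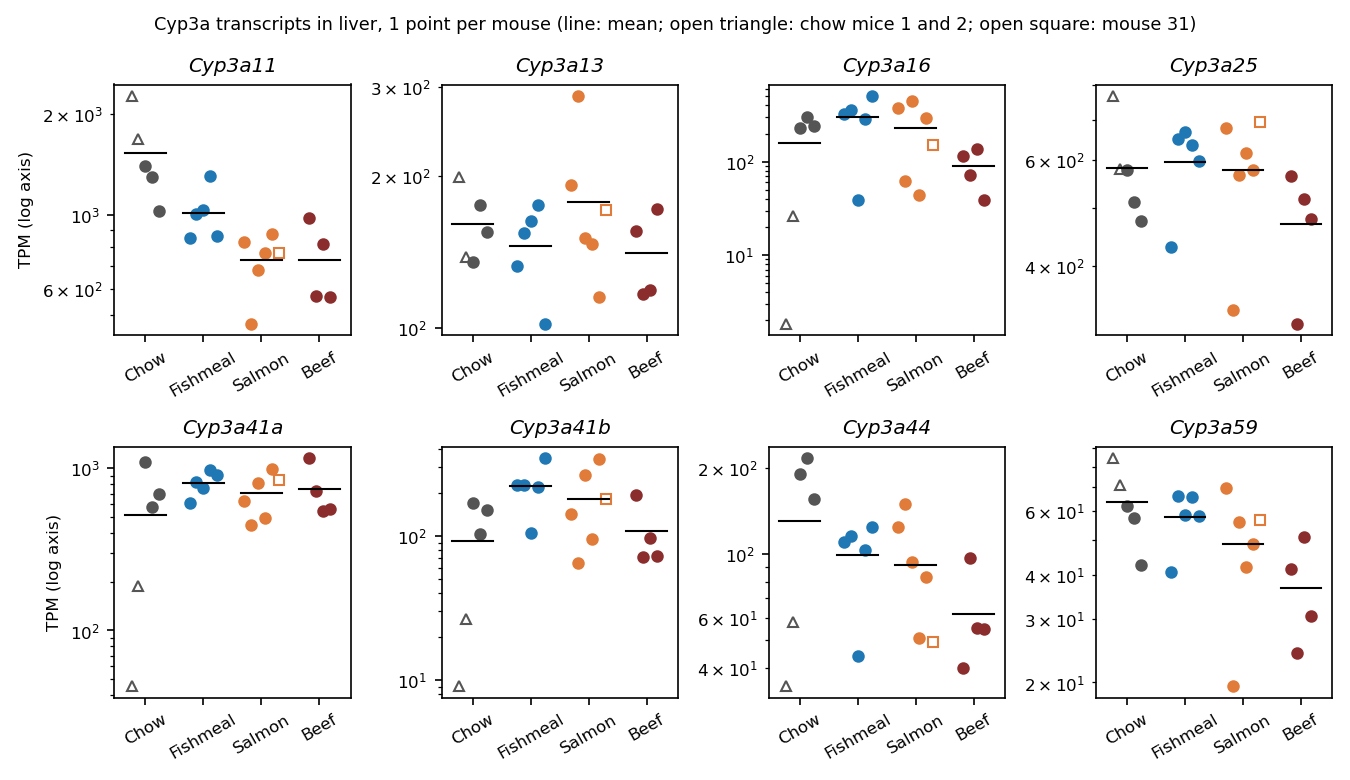
TPM (log axis, 1 panel per member) in each mouse by diet group, with the group mean as a line, chow mice 1 and 2 as open triangles and mouse 31 as an open square. For Cyp3a11 the salmon filet and beef mice lie below all chow-fed mice, and for Cyp3a16, Cyp3a41a and Cyp3a41b chow mice 1 and 2 lie below all other mice.

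HFD-fed mice had less Cyp3a11 than chow-fed mice. It had 2259, 1680, 1392, 1294 and 1027 TPM in chow mice 1, 2, 5, 7 and 10. In HFD-fed mice the lowest value was 472, the median 827 and the highest 1307 TPM. The arms overlapped, since 1 mouse fed fishmeal (mouse 16, with 1307 TPM) was above 2 chow-fed mice and another (mouse 14, with 1035 TPM) above 1. In CPM, the unit of the test, Cyp3a11 averaged 1678 ± 416 (SD, n = 15) in HFD-fed and 3020 ± 997 (n = 5) in chow-fed mice, and 15 of 15 HFD-fed mice were below the chow mean. The log2 fold change was -0.85 ± 0.17 (SE), a level of 0.56 times chow, with an adjusted p = 0.0031 (edgeR quasi-likelihood test, Benjamini-Hochberg adjustment over all genes). Fewer Cyp3a11-expressing cells and less Cyp3a11 RNA per cell cannot be told apart in bulk liver.

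Cyp3a11 was the only one of the 8 members that passed the test in HFD versus chow, at an adjusted p under 0.05. Across all 17120 genes tested 9.75% passed, and 5.21% were lower, so that 1 of 8 members is close to the background. The call depended on the chow-fed mice with the highest values. Without chow mice 1 and 2 the log2 fold change was -0.54 with an adjusted p of 0.17 (edgeR), and the calls over all genes fell from 1669 to 389. With the clock score as a covariate it was -0.62 with an adjusted p of 0.22, and 309 genes were called; the part of the clock in the result was not tested further. Leaving out any 1 library kept the call, with log2 fold changes from -0.96 to -0.64.

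The other members did not pass the test in HFD versus chow, and the intervals show which sizes remain possible. Cyp3a13 and Cyp3a25 had narrow intervals around 0, with log2 fold changes of 0.02 (95% confidence interval -0.35 to 0.38) and -0.04 (-0.31 to 0.24). Cyp3a59 had -0.36 (-0.77 to 0.06) and Cyp3a44 -0.54 (-1.2 to 0.17). The intervals of the most variable members were wide. Cyp3a16 had 0.48 (-1.0 to 1.96), Cyp3a41a 0.57 (-0.24 to 1.38) and Cyp3a41b 0.96 (-0.07 to 1.99). Cyp3a41a and Cyp3a41b summed gave 0.64 with an adjusted p of 0.35 (edgeR). On the CPM scale of the fit 12 of 15 HFD-fed mice were above the chow mean for Cyp3a41b and 13 of 15 for Cyp3a41a, a mean that mice 1 and 2 pulled down.

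**Figure D3:**
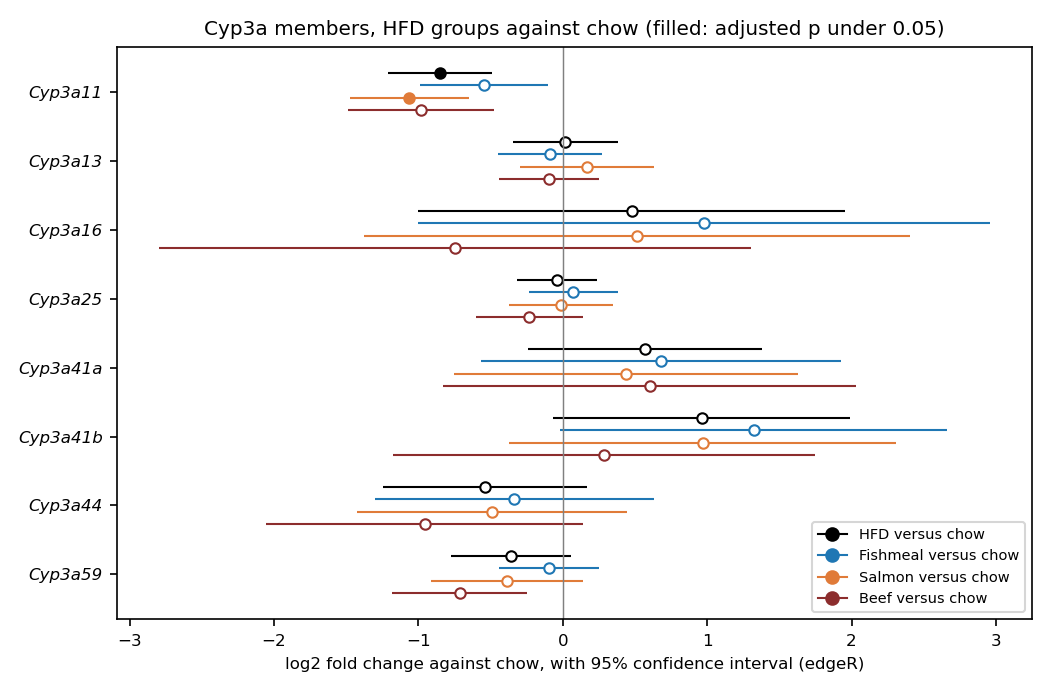
Log2 fold change against chow (horizontal axis) with the 95% confidence interval for each member, in HFD versus chow and in each HFD group versus chow; filled points passed an adjusted p of 0.05. The filled points are Cyp3a11 in HFD versus chow (-0.85) and in salmon filet versus chow (-1.06), and the intervals of Cyp3a16 are the widest.

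Among the diets, Cyp3a11 had the lowest means with salmon filet and beef. In mice fed fishmeal it had 848, 1003, 1035, 1307 and 865 TPM (mice 12, 13, 14, 16 and 20). With salmon filet the lowest value was 472, the median 768 and the highest 876 TPM. With beef it had 973, 573, 818 and 570 TPM (mice 32, 35, 39 and 40). The salmon filet and beef mice did not overlap the chow-fed mice, whereas the fishmeal mice did.

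In salmon filet versus chow, Cyp3a11 fell, with a log2 fold change of -1.06 ± 0.19 (SE) and an adjusted p of 0.012 (edgeR), and 6 of 6 mice were below the chow mean. It was the only member called, beside 4.46% of all genes. Without chow mice 1 and 2 the value was -0.76 with an adjusted p of 0.055, and with the clock score as a covariate -0.91 with an adjusted p of 0.19. With mouse 31 as beef it was -1.08 with an adjusted p of 0.023, beside 4.42% of all genes.

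In beef versus chow, Cyp3a11 had a log2 fold change of -0.98 ± 0.23 (SE) with 4 of 4 mice below the chow mean, and its adjusted p of 0.0501 (edgeR) lay at the threshold. No member was called, beside 2.48% of all genes. An unadjusted p under 0.05 was found for 2 members, among 2953 of 16559 genes with such a p. The second of these members was Cyp3a59, with a log2 fold change of -0.71 ± 0.21 and an adjusted p of 0.11. DESeq2 called both Cyp3a11 (-0.97, adjusted p 0.0014) and Cyp3a59 (-0.71, adjusted p 0.03). With mouse 31 as beef, edgeR called Cyp3a11 (-0.98, adjusted p 0.026), beside 3.05% of all genes. With the clock score as a covariate Cyp3a11 had -0.24 and an adjusted p of 0.86; clock scores of the mice fed beef were -0.12 to 3.24, and no gene at all was called in that fit.

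In fishmeal versus chow no member was called, beside 3.38% of all genes, and DESeq2 called none either. Cyp3a11 was the 1 member with an unadjusted p under 0.05, among 2778 of 16471 genes with such a p. Its log2 fold change was -0.54 ± 0.20 (SE), with an adjusted p of 0.18 (edgeR). All 5 mice were below the chow mean. The value was -0.33 without chow mouse 1, -0.25 without chow mice 1 and 2 and -0.23 with the clock score as a covariate (adjusted p of 0.38, 0.70 and 0.88, edgeR). Clock scores were -0.61 to 2.76 in mice fed fishmeal and -2.59 to -0.98 in chow-fed mice, without overlap. The fit with this covariate can therefore hardly separate diet from clock, and its calls over all genes were 43 instead of 556. Cyp3a41b had the largest value in the other direction, 1.3 (95% confidence interval -0.02 to 2.66), with 5 of 5 mice above the chow mean and an adjusted p of 0.30. Chow mice 1 and 2 pulled that mean down, and without them Cyp3a41b had 0.70 (adjusted p of 0.46, edgeR). The summed Cyp3a41 pair had 0.80 with all chow-fed mice (adjusted p of 0.55, edgeR). All 3 comparisons with chow share the same 5 chow-fed mice, so their values are not independent of one another.

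No member passed the test between HFD groups. In fishmeal versus salmon filet no member was called, beside 0.157% of all genes. Among the 702 of 16548 genes with an unadjusted p under 0.05 was 1 member. This was Cyp3a11, higher with fishmeal in 5 of 5 mice against the salmon filet mean, at a log2 difference of 0.53 ± 0.15 (SE) and an adjusted p of 0.53 (edgeR). DESeq2 called no member. With mouse 31 as beef no member was called either, beside 0.17% of all genes.

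In fishmeal versus beef no member was called, beside 0.00607% of all genes, but 5 of 8 members had an unadjusted p under 0.05 and a higher fitted value with fishmeal, among 384 of 16480 genes with such a p. The log2 differences were 1.72 ± 0.56 (SE) for Cyp3a16, 1.03 ± 0.34 for Cyp3a41b, 0.62 ± 0.17 for Cyp3a59, 0.43 ± 0.18 for Cyp3a11 and 0.30 ± 0.14 for Cyp3a25, each with an adjusted p of 1 (edgeR). Cyp3a41a alone had 0.07 and the summed Cyp3a41 pair 0.24. The value of Cyp3a41b thus depends on the uncertain split of counts within the pair. Cyp3a16 had 327, 354, 39.4, 283 and 505 TPM in the fishmeal mice 12, 13, 14, 16 and 20, and 114, 72.5, 136 and 39.2 TPM in the beef mice 32, 35, 39 and 40. Thus 4 of 5 mice fed fishmeal were above every mouse fed beef, and mouse 14 was within the range of beef. DESeq2 called no member. With mouse 31 as beef no member was called, beside 0.0245% of all genes. The log2 differences were then 1.57 for Cyp3a16, 0.88 for Cyp3a41b, 0.49 for Cyp3a59, 0.44 for Cyp3a11 and 0.19 for Cyp3a25. Cyp3a25 and Cyp3a59 varied together among HFD-fed mice (r = 0.89), as did Cyp3a16 and Cyp3a41b (r = 0.84). The 5 members are therefore not independent results.

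In salmon filet versus beef no member was called with mouse 31 in either group, beside 0% of all genes in both fits. No member had an unadjusted p under 0.05, compared to 613 of 16509 genes, and DESeq2 called no member. The log2 difference of Cyp3a11 was -0.08 (95% confidence interval -0.44 to 0.27) and that of Cyp3a16 1.3 (-0.03 to 2.53).

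The members differed in how much they varied between mice. Among HFD-fed mice the SD of log2 CPM was 1.33 for Cyp3a16, 0.80 for Cyp3a41b and 0.67 for Cyp3a44, compared to a median of 0.22 over 11536 protein coding genes, of which 99.8%, 98.9% and 98.0% varied less. Cyp3a59 (0.48), Cyp3a41a (0.40), Cyp3a13 (0.38) and Cyp3a11 (0.35) were intermediate, and Cyp3a25 varied least with 0.27, above 65.4% of the genes. The highest TPM of Cyp3a16 among HFD-fed mice was 12.9 times the lowest, whereas that of Cyp3a25 was 2.17 times the lowest.

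In chow-fed mice the spread came from 2 animals. Cyp3a16 had 1.84 and 25.9 TPM in chow mice 1 and 2, but 230, 297 and 241 TPM in mice 5, 7 and 10. Cyp3a41a had 45.3 and 187 TPM in mice 1 and 2, but 1092, 575 and 697 TPM in the other chow-fed mice. Cyp3a41b had 9.06 and 26.5 TPM, but 170, 103 and 152 TPM in the others. For each of these members mice 1 and 2 were below all 18 other mice.

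Cyp3a44 followed with 34.6 and 58.1 TPM in mice 1 and 2 against 155 to 216 TPM in the other chow-fed mice, although several HFD-fed mice were as low. The same 2 mice had the highest Cyp3a11 and Cyp3a59 TPM of all mice, with 84.5 and 71.1 TPM for Cyp3a59. In CPM, Cyp3a59 in mouse 2 (51.6) was below that in fishmeal mouse 16 (53.5). Cyp3a25 was highest in mouse 1 (768 TPM), while mouse 2 (579 TPM) lay close to mouse 5 (577 TPM). Their clock scores (-2.41 and -2.46) were within the range of the other chow-fed mice. These values were singled out after they were seen and carry no test.

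Without chow mice 1 and 2 the values of several members turned. In HFD versus chow, Cyp3a16 then had a log2 fold change of -0.21 instead of 0.48, Cyp3a41a -0.03 instead of 0.57, and Cyp3a25 0.12 instead of -0.04. Cyp3a41b kept its direction with 0.34, and Cyp3a44 had -1.06 with an adjusted p of 0.094 (edgeR). The higher mean of Cyp3a16, Cyp3a41a and Cyp3a41b in HFD-fed mice was thus largely set by these 2 chow-fed mice.

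The make-up of the Cyp3a transcript pool differed accordingly. Cyp3a11 took 47.7 ± 14.8% of the summed TPM of all members in chow-fed mice (n = 5), with 66.4% and 60.7% in mice 1 and 2 and 34.9% to 40.1% in the other 3. In HFD-fed mice it took 29.4 ± 4.16% (n = 15, range 22.2% to 36.1%). The summed TPM of the 8 members was 3238 ± 421 in chow-fed, 3254 ± 441 in fishmeal, 2743 ± 570 in salmon filet and 2389 ± 589 in beef mice. The last 2 sums were 2706 ± 629 and 2496 ± 564 with mouse 31 as beef. Over all HFD-fed mice it was 2819 ± 607 TPM. Without Cyp3a11 the sum was 1708 ± 584 in chow-fed and 1993 ± 454 in HFD-fed mice. In TPM the arms differed by less than the SD of either arm for both sums. In the deposited TPM a count of Cyp3a11 weighed less than a count of Cyp3a41a, so these shares and sums depend on the gene lengths used. In CPM, which are not divided by gene length, the sum of all members was 4420 ± 859 in chow-fed mice. It was 3342 ± 657 in HFD-fed mice, and the arms differed by more than either SD. Neither sum was tested.

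**Figure D4:**
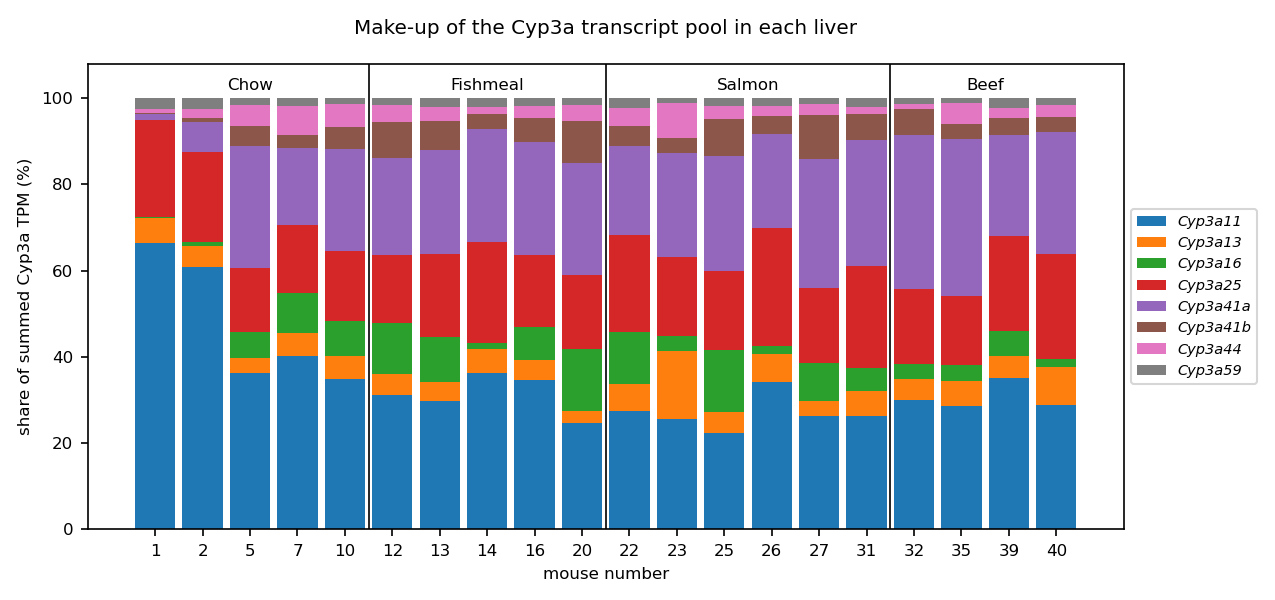
Share of the summed Cyp3a TPM (in percent, vertical axis) taken by each member in each of the 20 mice, ordered by diet group and mouse number. Cyp3a11 takes 66.4% and 60.7% in chow mice 1 and 2 and at most 40.1% in every other mouse, and salmon filet mouse 23 has the largest share of Cyp3a13 (15.7%).

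Members of the family did not all vary together among HFD-fed mice. Over the 15 HFD-fed mice, Cyp3a11 was compared with each of the other 7 members in log2 CPM. The Pearson correlation was highest with Cyp3a59 (r = 0.73, permutation p = 0.0020, adjusted p = 0.014 over 7 pairs; Spearman rho = 0.56, permutation p = 0.033, adjusted p = 0.12). It was 0.64 with Cyp3a25 (permutation p = 0.011, adjusted p = 0.040; rho = 0.47, p = 0.080, adjusted p = 0.16) and 0.59 with Cyp3a41a (permutation p = 0.021, adjusted p = 0.048; rho = 0.46, p = 0.090, adjusted p = 0.16). For Cyp3a41b r was 0.56 (permutation p = 0.030, adjusted p = 0.053; rho = 0.63, p = 0.014, adjusted p = 0.10). None of the 7 rank correlations passed the adjustment.

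These relations rested on few mice. Without the 2 mice farthest from the median of Cyp3a11 (mouse 16 on fishmeal and mouse 23 on salmon filet), r fell to 0.48 for Cyp3a59, 0.35 for Cyp3a25 and 0.34 for Cyp3a41a. Of the 3 pairs past the threshold, none remained past it without mouse 23, and 1 pair passed without each of mouse 13, mouse 16 and mouse 40. Cyp3a13, Cyp3a16 and Cyp3a44 had r of -0.33, 0.39 and -0.12 with Cyp3a11 (permutation p = 0.23, 0.16 and 0.68, adjusted p = 0.27, 0.22 and 0.68; rho = -0.13, 0.30 and -0.14, p = 0.66, 0.27 and 0.61, adjusted p = 0.66, 0.38 and 0.66). The 3 HFD groups entered together, and with 4 to 6 mice each no correlation was computed within a group.

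Among all pairs, given without a test, the highest r was that of Cyp3a25 with Cyp3a59 (0.89), the next Cyp3a16 with Cyp3a41b (0.84), followed by Cyp3a11 with Cyp3a59 (0.73) and Cyp3a41a with Cyp3a41b (0.70). Cyp3a25 with Cyp3a59 and Cyp3a41a with Cyp3a41b are pairs that share much sequence, and the part of shared reads in these values was not tested. Cyp3a16 and Cyp3a41b were 92.6% identical in the coding sequence. Cyp3a13, outside the cluster, had negative r with 6 of the other 7 members.

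**Figure D5:**
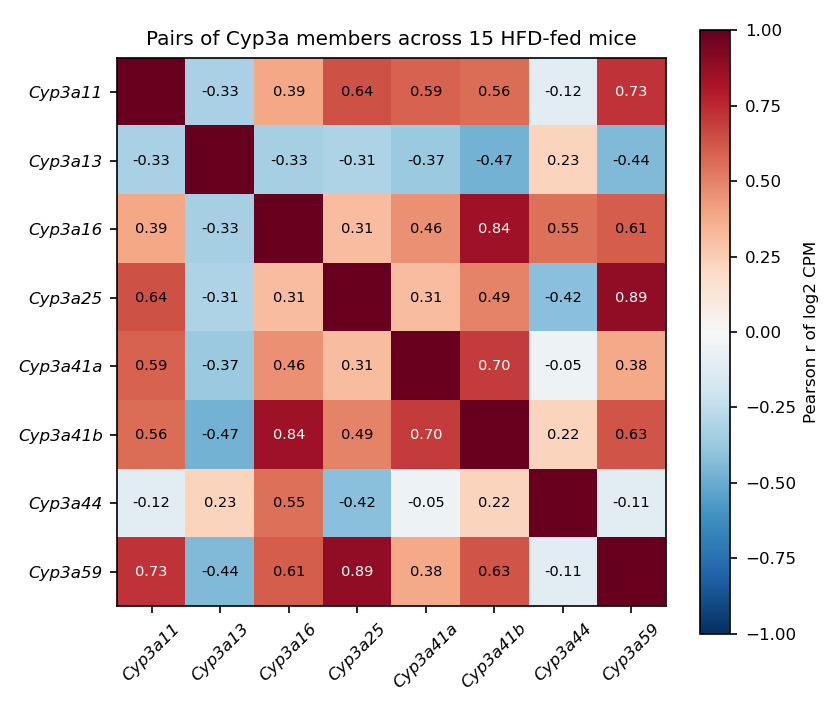
Pearson r of log2 CPM for each pair of Cyp3a members across the 15 HFD-fed mice (colour scale from -1 to 1). Cyp3a25 with Cyp3a59 (0.89) and Cyp3a16 with Cyp3a41b (0.84) are the highest, and Cyp3a13 is negative with every member but Cyp3a44.

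The genes most like each member were sought among 11528 other protein coding genes over the same 15 mice, with the 3 HFD groups together. Picking the 3 highest of so many genes favours a high r by itself, and no test was made. Spearman rho of the named pairs ranged from 0.69 (Cyp3a11 with Fmo1) to 0.92 (Cyp3a44 with Commd3). For Cyp3a16 the most alike genes were Sult2a3 (r = 0.86), Sult2a1 (0.85) and Sult2a2 (0.83). These are sulfotransferases of steroids and bile acids that are high in females and resemble one another in sequence. In the chow-fed mice, which the search did not use, Sult2a3 had 0.56 and 0.89 CPM in mice 1 and 2 and 4.22, 15.9 and 14.8 CPM in mice 5, 7 and 10. Sult2a1 had 28.3 and 58.0 CPM in mice 1 and 2 against 149 to 187 CPM in the others. The 2 chow-fed mice with the lowest Cyp3a16 thus also had the lowest Sult2a values of their group.

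For Cyp3a11 the most alike genes were 2210404O09Rik (r = 0.86), Fmo1, a flavin monooxygenase (0.84), and Stom (0.84). The gene 2210404O09Rik was also the closest to Cyp3a25 (0.90) and Cyp3a59 (0.92). The next were Zfp455 (0.88) and Zfp943 (0.86) for Cyp3a25, and Cyp2a22, another P450 (0.87), and Hao2, a hydroxyacid oxidase (0.85), for Cyp3a59. Cyp3a41b was closest to Rerg (0.85), Abcc4, a transporter of drugs and bile acids (0.83), and Sult2a3 (0.82). Cyp3a41a was closest to Zfp874b (0.85), Fundc2 (0.82) and Fam126a (0.81), Cyp3a44 to Commd3 (0.88), Smim6 (0.87) and Zfp13 (0.82), and Cyp3a13 to Slc41a2 (0.91), Orm1, an acute phase protein (0.84), and Tmprss2 (0.83).

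The genes that serve or control the family were counted in HFD versus chow, where 9.75% of all genes passed the test. The counts of each list stand beside that share. Of 7 partners of P450 enzymes none passed the test, with a median log2 fold change of -0.05 compared to 0.005 over all genes. Por, the electron donor, had 257 ± 93.4 CPM in HFD-fed and 266 ± 71.9 CPM in chow-fed mice. Of 14 nuclear receptors and factors tested, 2 rose and none fell, a share close to that of all genes, with a median of 0.27. The 2 were Nr3c1, the glucocorticoid receptor (log2 fold change 0.28, adjusted p = 0.019, edgeR), and Cebpa, a hepatocyte factor (0.48, adjusted p = 0.030). The receptors PXR and CAR did not pass, with values of -0.13 for Nr1i2 and 0.26 for Nr1i3 (adjusted p = 0.42 and 0.45).

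Of 13 other known targets of CAR and PXR, 7 fell and none rose, with a median of -0.50. The largest changes were those of Cyp2b10, the classical CAR target (-4.14 ± 0.36, adjusted p = 2.6e-07, edgeR), Akr1b7, an aldose reductase (-2.15 ± 0.28), Cyp2c55 (-1.71 ± 0.32) and Gstm3, a glutathione transferase (-1.50 ± 0.27). Cyp2b10 had 1.99 ± 1.37 CPM in HFD-fed and 35.3 ± 20.1 CPM in chow-fed mice. In the separate comparisons with chow, 4 of 13 fell on fishmeal, 7 on salmon filet and 6 on beef, compared to 3.38%, 4.46% and 2.48% of all genes called in either direction. The counts on salmon filet and beef were 7 and 7 with mouse 31 as beef.

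Of 8 female-biased genes, 2 rose and 2 fell, with a median of -0.08. Cyp2b13 (0.99) and Cyp2b9 (0.42) rose, whereas Sult3a1 (-1.88) was among those that fell. Of 7 male-biased genes tested, Slco1a1 (-3.78), Hsd3b5 (-2.29) and Elovl3 (-1.04) fell and none rose. Of 6 genes of the growth hormone axis, Socs2, a feedback inhibitor, fell (-1.53, adjusted p = 4.0e-06, edgeR) and none rose. Of 9 pericentral genes, Cyp1a2 (-0.94), Tbx3 (-0.79) and Axin2 (-0.77) fell, while Glul (0.08) and Cyp2e1 (0.47, adjusted p = 0.059) did not pass. None of 7 periportal genes passed.

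Clock genes moved with the arms. Of 9 daytime clock genes 8 rose, with a median of 1.71. The largest changes were those of Dbp (4.70 ± 1.00), Ciart (3.29 ± 0.94), Per3 (2.62 ± 0.68) and Tef (1.80 ± 0.38). Of 5 night-time genes Cry1 (-0.92) and Clock (-0.45) fell, while Arntl had -1.05 with an adjusted p of 0.065 (edgeR). None of the 6 hepatocyte markers passed, and their summed level was 84610 to 113600 CPM in HFD-fed and 94110 to 118600 CPM in chow-fed mice.

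Lymphocyte markers were low in all libraries. All 4 B cell markers fell, with a summed level of 1.59 to 4.51 CPM in HFD-fed and 4.52 to 11.1 CPM in chow-fed mice, led by Cd79a (-1.40) and Ms4a1 (-1.38). Of 6 T cell markers Cd3d (-1.01), Trac (-0.98) and Cd4 (-0.90) fell, with sums of 1.5 to 3.76 CPM and 2.98 to 5.34 CPM. None of 4 Kupffer cell, 5 stellate cell and 1 adipocyte marker tested passed. Clec4g, of 5 endothelial markers, fell (-0.29), with summed levels of 141 to 208 CPM in HFD-fed and 172 to 200.2 CPM in chow-fed mice. Sox9, of 4 cholangiocyte markers, fell (-0.61), with sums of 4.50 to 12.6 CPM and 9.51 to 15.9 CPM. Cela1, the 1 marker of exocrine pancreas tested, rose (0.77), with sums over that list of 10.7 to 25.9 CPM and 8.57 to 10.8 CPM. Alas2, of 5 red cell markers, rose (0.71), with sums of 85.3 to 480 CPM and 73.0 to 212 CPM. Fabp2, of 2 intestinal markers tested, rose (1.21), with sums of 73.4 to 145 CPM and 32.7 to 68.6 CPM. The part of other cell types in the Cyp3a11 result was not tested.

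One further Cyp3a gene had counts. Cyp3a57, which shares 5.54% of the 50-base windows of Cyp3a25 and 7.06% of those of Cyp3a59, had 1 to 56 counts per library, with 0.21 ± 0.18 CPM in HFD-fed and 0.15 ± 0.11 CPM in chow-fed mice (log2 fold change 0.51, adjusted p = 0.63, edgeR).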

How the data were processed

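Liver RNA of 20 female mice was prepared by the authors with a strand-specific mRNA kit and sequenced as 50-base read pairs. Reads were trimmed with BBDuk by the authors; HISAT2 1.2.1 was their aligner and featureCounts 1.4.6-p1 their counter. The deposited counts are unnormalised, and the deposited TPM values are scaled by the authors to gene length and library size. The build named in the sources is a human one; positions are from GENCODE M21 on GRCm38. Groups follow the sample labels.

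The counts were tested with edgeR 4.0 in R 4.3: TMM normalisation, a minimum count of 10 (filterByExpr), two-sided quasi-likelihood F-tests, and p-values adjusted by Benjamini and Hochberg over every tested gene. CPM use TMM factors, with a prior count of 2 on the log scale. Each comparison was fitted on its own libraries. SE and intervals come from the F statistic. Libraries of one group are separate mice. Correlations used 100000 permutations, two-sided. Shares of 50-base windows compare each member's longest coding transcript with all GENCODE transcripts. Protein sequences were not used here, so identities are of coding nucleotides. The rule for named genes was all members in every comparison, listed genes past the threshold (at most 4 per list), a few fixed partners and clock genes, and the 3 genes most like each member. One listed gene is not reported here by name. Sult2a levels in chow-fed mice were added after seeing the data. The members and lists were chosen with earlier results of these data known.

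The alternatives tried were DESeq2 1.42, DESeq2 size factors in edgeR, no filter beyond 1 count, all 4 groups in one fit, limma 3.58 on log2(TPM + 1) for genes above a mean of 0.5 TPM, the Cyp3a41 pair summed, the clock score as covariate, mouse 31 as beef and each mouse left out. The fit without chow mice 1 and 2 was chosen after seeing the data. The edgeR fit was tested on simulated counts with the same spread set for all genes. In HFD versus chow it recovered 89% of 2-fold changes, and 8.25% of its calls were false. In fishmeal versus chow it recovered 49% of 2-fold changes, with 4.49% of calls false. In fishmeal versus beef these values were 58% and 5.95%. The simulated spread was not matched to the members. These rates need not hold for the most variable ones, such as Cyp3a16 (SD of log2 CPM 1.33 among HFD-fed mice).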

Additional observations from a re-analysis of the deposited data

Results flagged for a closer look

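Each member was examined in each diet group for a mouse that stood apart from the rest of its group (Dixon's test at 95%), and 2 of 32 sets of values had one, where chance alone gives about 1 in 20. Cyp3a25 in mouse 23 (salmon filet) had 337 TPM, and the next lowest mouse of the group had 568 TPM. The same mouse had the lowest Cyp3a11 (472 TPM) and Cyp3a59 (19.5 TPM) and the highest Cyp3a13 (288 TPM) of its group. Cyp3a44 in mouse 14 (fishmeal) had 44.1 TPM, and the next lowest mouse had 104 TPM. Mouse 14 also had the lowest Cyp3a16 (39.4 TPM) and Cyp3a41b (104 TPM) of the mice fed fishmeal. Chow mice 1 and 2 were not picked out by this test, which looks for a single mouse. Mouse 31 was kept in the salmon filet group here, and the test was not run with it as beef. The flag of mouse 23 therefore applies only to the groups as labelled.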

How the results depend on the processing

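Cyp3a11 was lower in every comparison with chow under every alternative run. The number of members called moved under few. With the clock score as covariate, and without chow mice 1 and 2, it was 0 instead of 1 in HFD versus chow and in salmon filet versus chow. In beef versus chow it was 2 instead of 0 with DESeq2, and 1 with all genes of at least 1 count, with the fit on all 4 groups and with mouse 31 as beef. Leaving out 1 mouse gave 0 to 1 in beef versus chow (1 without chow mouse 10 or beef mouse 32) and 0 to 4 correlated pairs of 7; the other counts did not move. Other causes were not tested.

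The values that turned had not passed the edgeR test in their own comparison. In HFD versus chow these were Cyp3a13 (-0.002 in the fit on all 4 groups, -0.063 with limma), Cyp3a25 (0.12 with the clock score, 0.12 without chow mice 1 and 2), Cyp3a16 (-0.21) and Cyp3a41a (-0.032) without those mice. In fishmeal versus chow, Cyp3a13 (0.29) and Cyp3a59 (0.028) turned with the clock score, and Cyp3a59 (0.13) without mice 1 and 2. In salmon filet versus chow, Cyp3a16 (-0.079) and Cyp3a25 (0.14) turned with the clock score, and Cyp3a16 (-0.18), Cyp3a25 (0.14) and Cyp3a41a (-0.17) without mice 1 and 2. In beef versus chow, Cyp3a16 (0.32, limma), Cyp3a41a (-0.0061) and Cyp3a41b (-0.34, both without mice 1 and 2) turned. In fishmeal versus beef, Cyp3a13 (-0.10) and Cyp3a41a (-0.027) turned with the clock score and Cyp3a13 (-0.032) with mouse 31 as beef, and in salmon filet versus beef Cyp3a11 (0.010) with limma.

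With 1 mouse left out, values that changed sign ranged as follows. In HFD versus chow Cyp3a13 ranged from -0.079 to 0.13 and Cyp3a25 from -0.0997 to 0.11. In fishmeal versus chow Cyp3a13 ranged from -0.16 to 0.032 and Cyp3a59 from -0.21 to 0.060. In salmon filet versus chow Cyp3a13 ranged from -0.060 to 0.28 and Cyp3a25 from -0.076 to 0.13. In beef versus chow Cyp3a13 ranged from -0.21 to 0.0073 and Cyp3a41b from -0.10 to 0.67. Cyp3a25 ranged from -0.0055 to 0.14 in fishmeal versus salmon filet, Cyp3a13 from -0.083 to 0.13 and Cyp3a41a from -0.059 to 0.32 in fishmeal versus beef, and Cyp3a11 from -0.18 to 0.043 and Cyp3a41a from -0.31 to 0.064 in salmon filet versus beef. The r of Cyp3a11 with Cyp3a13 ranged from -0.52 to 0.12 and with Cyp3a44 from -0.27 to 0.14.

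No paired analysis was possible because the replicate numbers follow the order of the samples and pair no mice. Mean TPM was lower in HFD for 5 of 8 members, and mean CPM for 4. All members had counts far above the filter, so the spread between mice, not depth, limits these comparisons, and in the Cyp3a41 pair shared sequence does.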
